A study of Mus musculus with 30 samples.

Results

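DNA replication and S phase genes, 38 named genes in all, were followed in whole mouse lung during the first days of breathing 10% oxygen. The members were chosen by symbol: every probe set of the 3 array types whose annotated gene symbol was exactly 1 of the 38 names was taken, which gave 69 probe sets out of 36701 that were not controls. RNA came from lungs of animals kept for 10 h, 2 d, 4 d or 6 d in a chamber with 10% oxygen, a treatment meant to induce pulmonary hypertension, and from a comparison group that the titles call Norm. What Norm stands for is not stated, and the description given with those samples uses a term from transplantation, rejection. Strain, sex and age were not given in the sources used here. There were 2 samples per group, 1a and 1b, and each was hybridised to 1 oligonucleotide array of each type (A, B and C of the Affymetrix MG-U74 version 2 set), which carry different probe sets. Whether 1a and 1b are different animals is not stated, and the p-values given here therefore reflect the spread between 2 samples that may be technical repeats.

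A cell copies its DNA once per division, in S phase. Before S phase the proteins Cdc6 and Cdt1 load the ring of Mcm proteins onto DNA, and cyclin E with its kinase and the E2F transcription factors open the way into S phase. The Mcm ring, joined by Cdc45, then unwinds the DNA, Rpa coats the single strands, primase and the polymerases build the new strands on the Pcna clamp, and Fen1 and Lig1 join the fragments of the lagging strand. Thymidine kinase and ribonucleotide reductase supply the nucleotides, and the chromatin assembly factor Caf-1 puts histones on the new DNA. Most cells of a resting adult lung are outside the cell cycle, and low oxygen is known to bring vascular wall and connective tissue cells of the lung into division. RNA of whole lung cannot tell more cycling cells from more RNA of these genes per cell.

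Values were deposited as intensities on a linear scale, with trimmed means between 800.2 and 800.4 on all arrays. Intensities under the 40th percentile of an array type, the floor, were raised to that value before log2 was taken. The floor was 236.05 for type A, 297.36 for type B and 200.93 for type C. A probe set was tested if it stood above the floor on at least 2 arrays. Of the members' 69 probe sets, 55 passed (38 on A, 1 on B and 16 on C), and 33 of the 38 members had a tested probe set. Pola1, Prim1, Prim2, Tyms and Rfc4 had none. Each of the 33 members was represented by 1 probe set, on A for 27 of them and on B or C for 6. Other tested probe sets are given for some members, and their agreement is counted further on. Lung markers were present: all 10 (among them Sftpc, 3316 to 42808 on A, a surfactant protein of alveolar type 2 cells) had a tested probe set, and Sftpd was the one marker at the floor on some arrays (5 of 9).

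On 2 of the A arrays the label went against the data of the same samples on B and C. For genes present on 2 array types, the deviation of each A array from its gene means was correlated with that of each B array (1303 genes) and C array (1322 genes). These correlations are across genes, which are not independent replicates, and they are small throughout because they compare single arrays of weakly changing genes. The A array labelled Norm 1b was closest to the array labelled 4 d 1a on B (r = 0.166) and on C (r = 0.155), with r between -0.0036 and 0.026 for its own group. The A array labelled 4 d 1a was closest to Norm 1a on both types (r = 0.121 and 0.0784), with r between -0.036 and 0.030 for its own group. Of the other A arrays, 6 matched their own group best on both types, and the array labelled 6 d 1b matched 2 d 1b best on B (r = 0.106) and its own group on C.

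**Figure D1:**
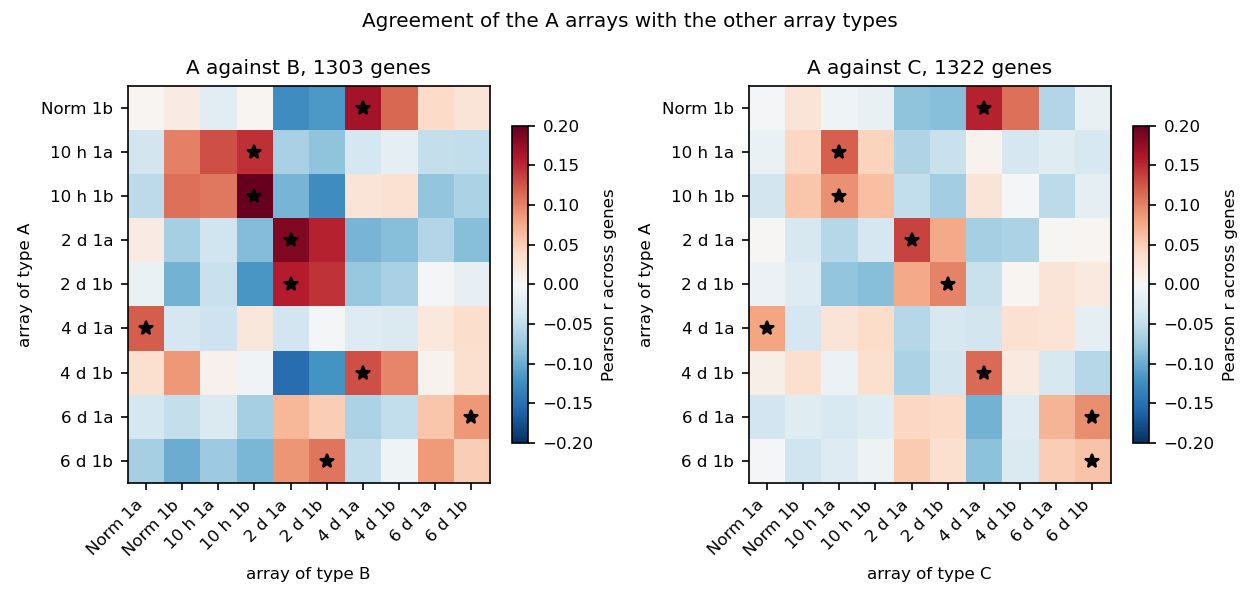
Pearson correlation, across genes measured on 2 array types, of each A array (vertical axis) with each B array (left, 1303 genes) and C array (right, 1322 genes), after taking each gene's mean off. A star marks the best match in each row; the array labelled Norm 1b has its star at 4 d 1a (0.166 and 0.155) and the array labelled 4 d 1a at Norm 1a (0.121 and 0.0784).

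No array was given another label. A further array, titled Norm 1a on A, stands in the table of the B arrays, where its rank correlations with the B arrays lay between -0.0028 and 0.0096, and it was left out. The A arrays therefore had 1 Norm array, the one labelled Norm 1b, and every change from Norm given below for a gene on A rests on it. In their deposited order, arrays of the 2 d and 6 d groups form one run, apart from those of Norm, 10 h and 4 d, so that time in low oxygen and run of deposit cannot be told apart for 2 d and 6 d against Norm or 10 h. The Gapdh control, whose 3' signal over its 5' signal measures RNA integrity, gave a ratio of 3.64 to 4.60 at 2 d, 1.40 to 1.68 at 6 d and 0.786 to 1.51 in the other groups. The same ratio of the actin control was 3.64 to 4.98 at 2 d, 0.474 to 1.66 at 6 d and 0.0272 to 0.926 in the other groups. The part of RNA integrity in the members' values was not tested.

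Against the arrays labelled Norm, the members' median was higher at 2 d, 4 d and 6 d and near 0 at 10 h, but no member passed the test at any time. For the 27 members on A this rests on the array labelled Norm 1b: there the 2 d and 6 d arrays had mean member levels above that array and below the array labelled 4 d 1a, the other one in doubt. At 10 h the median log2 change of the 33 members was 0.017, with 18 higher, 10 lower and 5 at the floor in both groups. At 2 d it was 0.42, with 29 of 33 higher. At 4 d it was 0.30 (24 of 33 higher) and at 6 d 0.29 (30 of 33 higher). The 4 d value came from A: the median was 0.40 for the 27 members represented there, with 21 higher. For the 6 members represented on B or C it was -0.0073 at 4 d, with 3 higher. Over all 13039 genes tested the medians of these comparisons lay between -0.0033 and 0.0044, with 47.3% to 50.4% of genes higher. These 33 are the members that passed the filter on dim probe sets, and a member can pass it through the group where it is high. With no filter and all 38 members, the medians were 0.0, 0.28, 0.15 and 0.22, with 17, 27, 22 and 28 of 38 higher. The 4 comparisons share the Norm arrays, so they are not independent of each other.

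In limma's test with Benjamini-Hochberg adjustment over the 25801 tested probe sets, none of the 55 member probe sets passed an adjusted p of 0.05 in any of the 4 comparisons with Norm. Over all probe sets 0% passed at 10 h, 1.86% at 2 d, 0.00775% at 4 d and 0% at 6 d. An unadjusted p under 0.05 was reached by 2 of the 55 at 10 h (6.11% of all probe sets), 6 at 2 d (18.9%), 6 at 4 d (6.13%) and 11 at 6 d (9.17%). All 6 at 2 d, all 6 at 4 d and 10 of the 11 at 6 d were higher. At 2 d the members' share, 6 of 55, was below that of all probe sets, while at 6 d it was 11 of 55 against 9.17%. The smallest adjusted p of a member was 0.668 at 10 h (Tk1), 0.082 at 2 d (Ccne2), 0.568 at 4 d (Mcm3) and 0.319 at 6 d (Lig1).

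**Figure D2:**
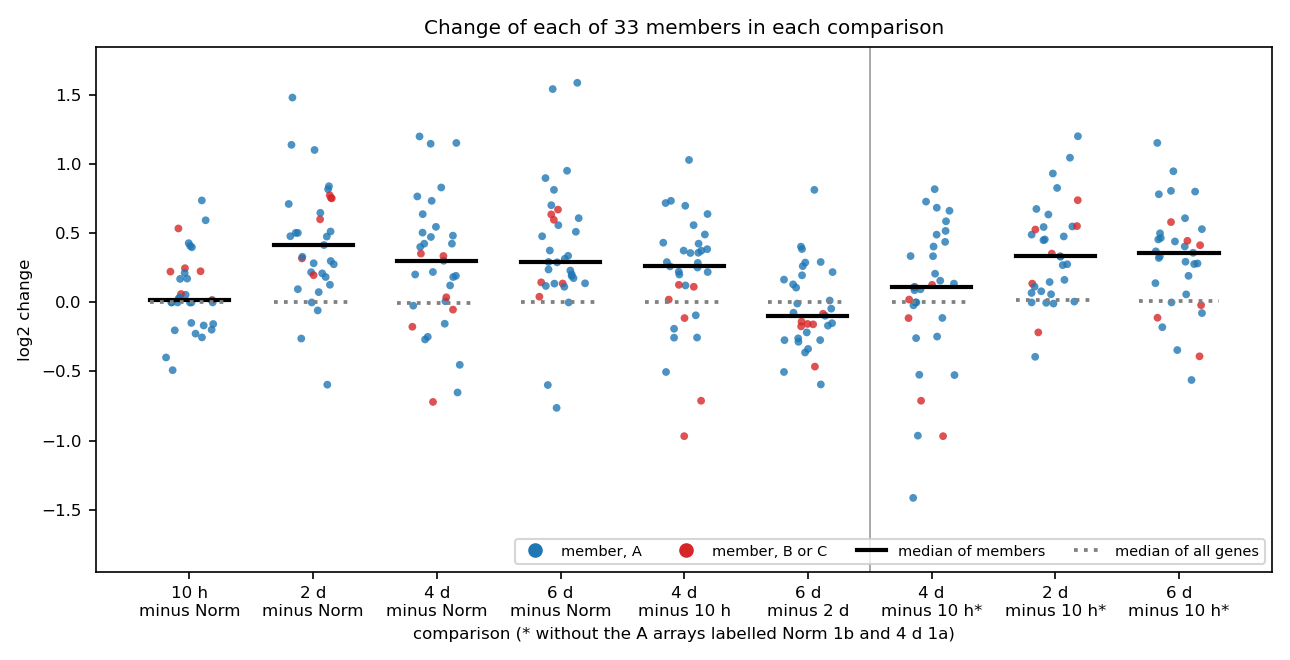
Log2 change (vertical axis) of each of the 33 members (points, blue on A and red on B or C) in each comparison, with the members' median (black bar) and the median of all genes tested (dotted bar). Right of the line the A arrays labelled Norm 1b and 4 d 1a are left out; the members' median at 4 d against 10 h is then 0.11 instead of 0.26, and that of 2 d against 10 h is 0.33.

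The shift at 2 d and 6 d was present on both kinds of array, and that at 4 d mainly on A. On A alone (30 members) the medians at 2 d, 4 d and 6 d were 0.32, 0.35 and 0.30, with 26, 23 and 27 members higher. On B and C alone (13 members), which use no array in doubt and both Norm arrays, they were 0.32, 0.15 and 0.28, with 10, 9 and 12 higher. Among the 17 member probe sets of B and C, both 2 d arrays stood above both Norm arrays in 7 (23.9% of all B and C probe sets did) and below both in none (22.2%). Both 6 d arrays stood above in 8 of 17 (18.4% of all) and below in none (18.8%). At 4 d the numbers were 3 above (14%) and 2 below (15%), and at 10 h 2 above (15%) and 2 below (14.7%).

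**Figure D3:**
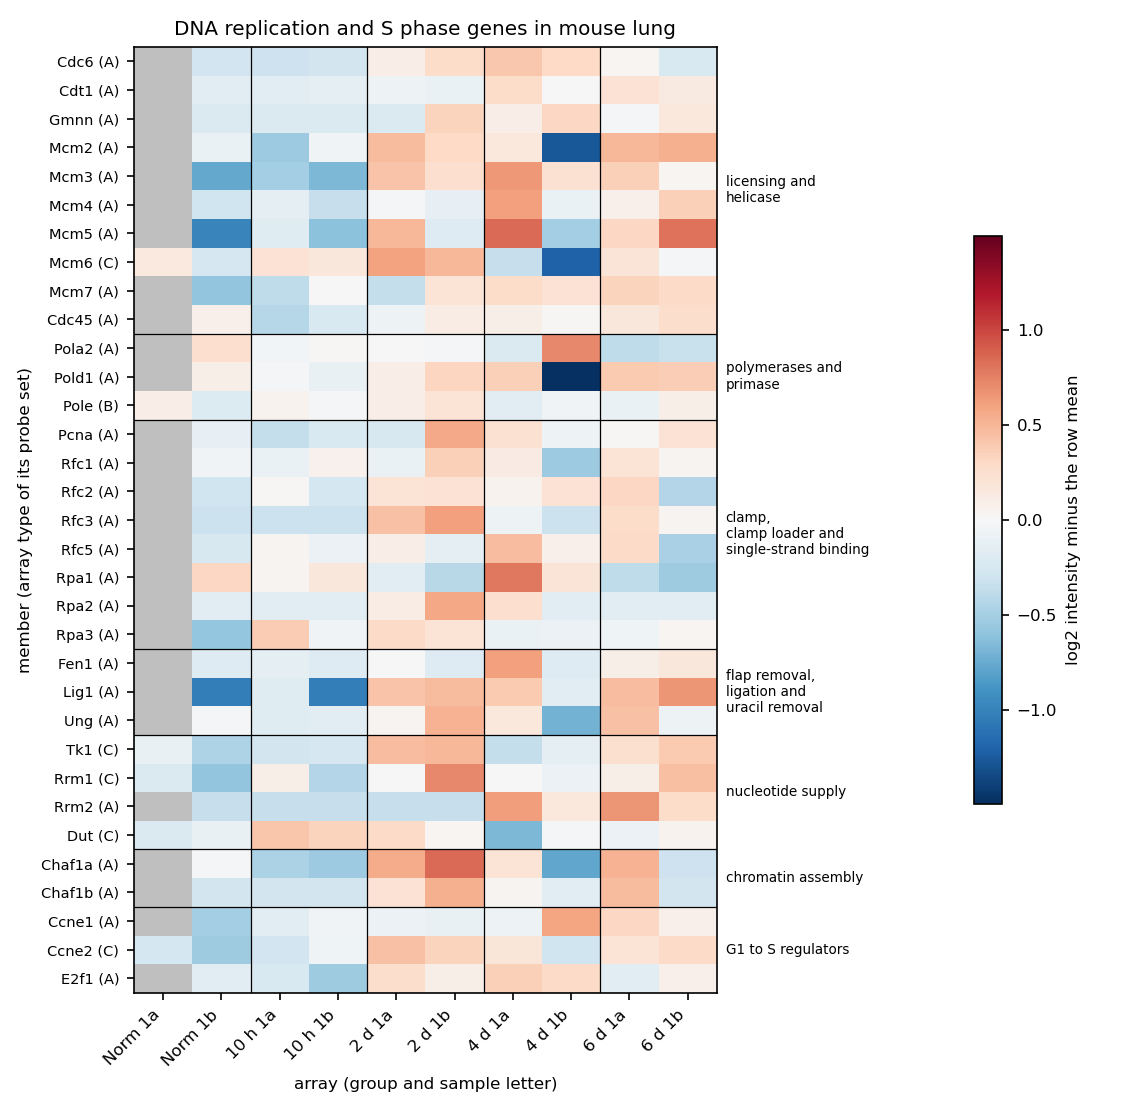
Log2 intensity of each of the 33 members on each array, as the deviation from the row's mean (colour), with members grouped by role and the array type of the probe set in brackets. Grey cells are the Norm 1a array that was left out on A; the 4 d 1b column holds the lowest values of Mcm2, Mcm6 and Pold1, and the 4 d 1a column holds the lowest of no row of A.

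The licensing and helicase genes load and drive the Mcm ring. All 10 tested stood above Norm at 6 d (median 0.42, range 0.14 to 1.55), 9 of 10 at 2 d (median 0.48), 7 of 10 at 4 d and 6 of 10 at 10 h. Mcm3, a subunit of the ring, measured 255 on the one Norm array, 303 and 271 at 10 h, 582 and 516 at 2 d, 679 and 507 at 4 d and 552 and 442 at 6 d. The Norm and 10 h arrays were thus low and every later array was higher than all 3 of them. The change from Norm was 1.10 ± 0.32 (SE) at 2 d, which is 2.15-fold, 1.20 ± 0.32 at 4 d and 0.95 ± 0.32 at 6 d, with limma adjusted p = 0.111, 0.568 and 0.410. Its second probe set, which has a suffix for probes that match several transcripts, was higher by 0.56, 0.54 and 0.82.

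Mcm5, another ring subunit, read 364 on the Norm array, 639 and 474 at 10 h, 1018 and 634 at 2 d, 1293 and 509 at 4 d and 891 and 1268 at 6 d. The 6 d arrays lay above Norm and both 10 h arrays, while the 2 d and 4 d pairs each had an array within the range of the 10 h arrays. The change at 6 d was 1.55 ± 0.55, with limma adjusted p = 0.443, and the other 2 tested probe sets of Mcm5 were higher by 0.28 and by at least 0.23. Mcm7 measured 289 in Norm, 336 and 434 at 10 h, 341 and 500 at 2 d, 525 and 505 at 4 d and 549 and 531 at 6 d. Both 4 d and both 6 d arrays lay above all Norm and 10 h arrays. Mcm6, on C, went another way at 4 d, with 655 and 496 in Norm, 689 and 666 at 10 h, 899 and 833 at 2 d, 466 and 257 at 4 d and 677 and 581 at 6 d. Its 4 d arrays were the lowest of its 10 arrays, and its second tested probe set was lower than Norm at every time, at no more than -0.84 at 10 h and at -0.08 at 2 d, -0.46 at 4 d and -0.14 at 6 d. Mcm2 and Mcm4, the other ring subunits, differed from Norm by 0.61 and 0.51 at 6 d.

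Cdc45, which joins the ring to make the active helicase, stood within 0.14 of Norm from 2 d on in its representative probe set. On A it read 333 in Norm, 161 and 271 at 10 h, 300 and 342 at 2 d, 335 and 320 at 4 d and 356 and 378 at 6 d. The 10 h arrays were its lowest, one of them under the floor, and the change from Norm at 10 h was -0.40 ± 0.23 with limma adjusted p = 0.910. A second Cdc45 probe set on C was higher at 10 h, by 0.56, and at 2 d, by 0.79. That probe set read 559 and 880 in Norm, 609 and 695 at 4 d and 1023 and 827 at 6 d. The loading factors Cdc6 and Cdt1 differed from Norm by 0.19 and 0.34 at 6 d, and Gmnn, the inhibitor of Cdt1, by at least 0.29. Cdc6 was highest at 4 d, with 407 and 378 there against 252 in Norm and 249 and 254 at 10 h.

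Mcm genes, Cdc6 and others of this set are textbook targets of E2F, so their promoters were searched for the E2F octamers TTTCCCGC, TTTGGCGC, TTTCGCGC and TTTGCCGC on both strands. RefSeq promoter windows of 300 bases (250 before and 50 after the annotated start, build GRCm38.p6) were at hand for 32 of the 38 members. Of the 32, 10 held an octamer in at least 1 window: Cdc6, Cdt1, Mcm3, Mcm5, Mcm6, Mcm7, Pola1, Pold1, Rfc3 and Lig1. Counted by window, 10 of the members' 36 held one (27.8%), against 2.26% of all 32851. The stretches that follow show where the octamers lie in 5 licensing and helicase genes, with the octamers in capitals, 5' to 3' on the gene's strand. A match is a description of the sequence and does not show that the factor binds.
Mcm3: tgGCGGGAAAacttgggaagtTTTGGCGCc
Mcm5: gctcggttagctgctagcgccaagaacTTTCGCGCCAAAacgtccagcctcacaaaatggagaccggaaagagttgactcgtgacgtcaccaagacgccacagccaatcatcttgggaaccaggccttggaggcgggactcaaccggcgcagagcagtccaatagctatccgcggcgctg
Mcm6: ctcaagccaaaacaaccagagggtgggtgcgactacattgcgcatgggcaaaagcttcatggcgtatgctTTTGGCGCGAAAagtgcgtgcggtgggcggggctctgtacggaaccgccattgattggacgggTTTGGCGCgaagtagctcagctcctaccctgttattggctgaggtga
Mcm7: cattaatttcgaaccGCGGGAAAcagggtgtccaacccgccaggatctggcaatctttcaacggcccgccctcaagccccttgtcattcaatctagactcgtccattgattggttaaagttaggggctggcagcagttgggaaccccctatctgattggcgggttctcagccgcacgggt
Cdc6: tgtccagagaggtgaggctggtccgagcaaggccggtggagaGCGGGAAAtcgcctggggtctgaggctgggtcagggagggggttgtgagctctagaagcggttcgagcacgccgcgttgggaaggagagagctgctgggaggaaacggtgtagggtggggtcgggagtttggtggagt

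The Mcm3 stretch lies at chr1:20820266-20820295 on the minus strand, just after the annotated start (bases 18 to 47), and holds 2 octamers. The other stretches are the 180 bases before the start. The Mcm5 stretch is at chr8:75109329-75109508 (plus strand) and the Mcm6 stretch at chr1:128359706-128359885 (minus strand). In both, 2 octamers on opposite strands overlap and make 1 capital run, and Mcm6 has a further octamer nearer its start. The Mcm7 stretch is at chr5:138171884-138172063 (minus strand) and the Cdc6 stretch at chr11:98907971-98908150 (plus strand), with 1 octamer each. The pentamer CCAAT, on either strand, was held by windows of 17 of the 32 members and by 37.4% of all windows.

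The polymerases and primase had median differences from Norm of -0.15 at 10 h, 0.13 at 2 d, -0.05 at 4 d and 0.04 at 6 d. Only 3 of the 6 members had a tested probe set, since Pola1, Prim1 and Prim2 did not pass the filter. Pole, the leading-strand polymerase, on B, read 2882 and 2341 in Norm, 2782 and 2639 at 10 h, 2872 and 3090 at 2 d, 2418 and 2596 at 4 d and 2502 and 2856 at 6 d. All groups overlapped with Norm, and the changes lay between -0.05 and 0.20. Pold1, the lagging-strand polymerase, read 704 in Norm, 658 and 613 at 10 h, 712 and 831 at 2 d, 850 and 115 at 4 d and 868 and 857 at 6 d. The 4 d pair was split between its lowest value, which is under the floor, and one of its highest. The difference from Norm at 4 d was -0.65 ± 0.62 with limma adjusted p = 0.906, while its other 2 tested probe sets were higher there, by 0.03 and 0.22. Pola2, the second subunit of the polymerase that extends primers, read 596 in Norm, 490 and 510 at 10 h, 500 and 494 at 2 d, 433 and 829 at 4 d and 386 and 401 at 6 d. It was lower at 6 d, by -0.60 ± 0.40, with limma adjusted p = 0.719. Its second tested probe set was lower at 6 d too, by -0.67, and higher at 2 d, by 0.73.

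Of the clamp, clamp loader and single-strand binding genes, 7 of 8 tested stood above Norm at 2 d (median 0.39), 7 at 4 d (0.20) and 6 at 6 d (0.20). Rfc3, a subunit of the loader that opens the clamp, read 217 in Norm, 213 and 217 at 10 h, 398 and 449 at 2 d, 280 and 122 at 4 d and 357 and 303 at 6 d. Norm and 10 h lay under the floor, and all 2 d and 6 d arrays lay above it. The change from Norm was at least 0.84 ± 0.23 at 2 d (limma adjusted p = 0.097) and at least 0.48 ± 0.23 at 6 d. Rpa3, the smallest subunit of the single-strand binding complex, read 248 in Norm against 479 and 357 at 10 h, 451 and 424 at 2 d, 344 and 348 at 4 d and 353 and 378 at 6 d. The Norm array was below all 8 others, so each Rpa3 change rests on that single array, among them 0.74 ± 0.28 at 10 h with limma adjusted p = 0.737.

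Rpa1, the largest subunit of the same complex, went the opposite way at 2 d and 6 d. It read 1411 in Norm, 1176 and 1280 at 10 h, 1019 and 856 at 2 d, 1970 and 1305 at 4 d and 874 and 790 at 6 d. The 2 d and 6 d arrays were its 4 lowest, and the change at 6 d was -0.76 ± 0.28 with limma adjusted p = 0.445. A second Rpa1 probe set on C was near the floor and differed from Norm by -0.16 at 6 d and 0.21 at 4 d. Pcna, the clamp itself, read 1685 in Norm, 1437 and 1568 at 10 h, 1548 and 2719 at 2 d, 2140 and 1734 at 4 d and 1860 and 2125 at 6 d. Its 2 d arrays lay on both sides of Norm. Rfc1, Rfc2 and Rfc5, further loader subunits, differed by 0.18, 0.23 and 0.14 at 6 d, and the representative of Rpa2 was at the floor in both groups there. A second Rpa2 probe set, on C, was above the floor on all 10 arrays. It read 1275 and 921 in Norm and 865 and 1493 at 6 d.

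**Figure D4:**
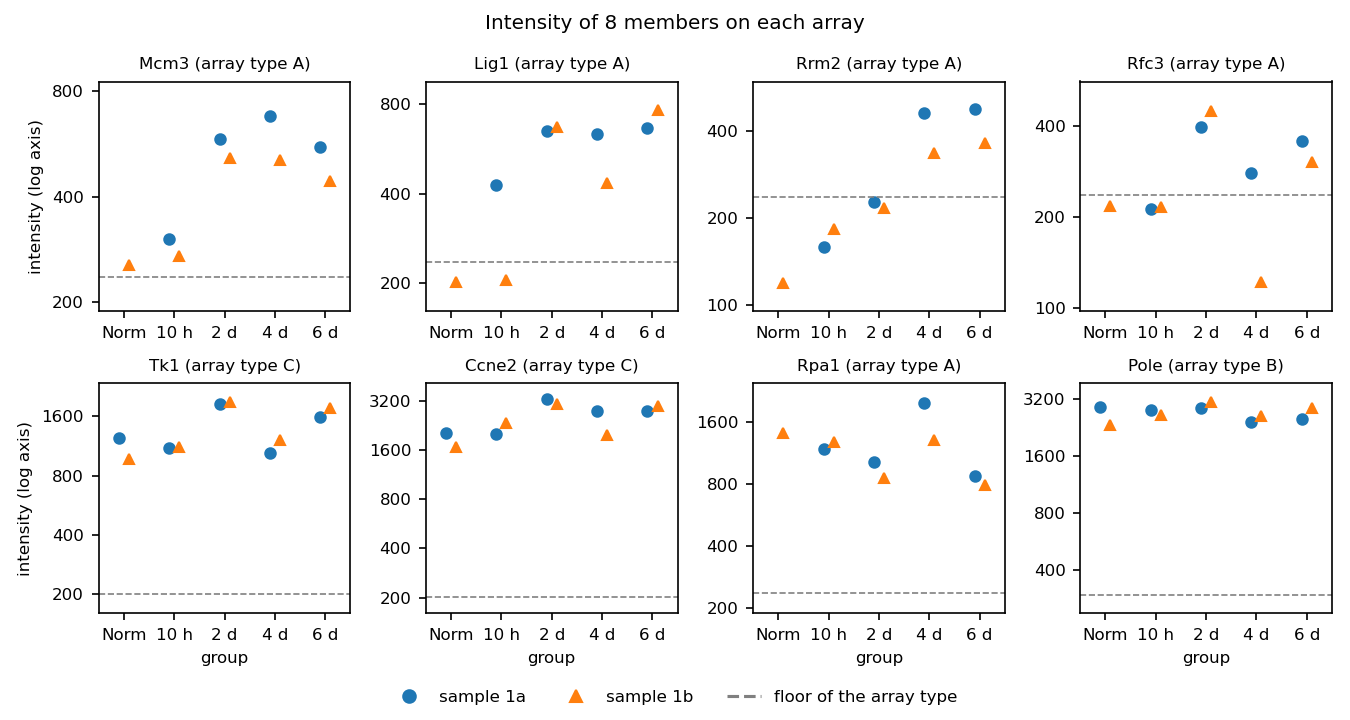
Intensity (log axis) of 8 members on each array by group, circles for sample 1a and triangles for 1b, with the floor of the array type as a dashed line; A has 1 Norm array. Mcm3 goes from 255 in Norm to 442 to 679 on the 2 d, 4 d and 6 d arrays, Tk1 and Ccne2 stand highest at 2 d, and Rpa1 is lowest at 2 d and 6 d.

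Lig1, the ligase that seals the fragments of the lagging strand, had the largest difference from the array labelled Norm 1b among the representatives at 2 d and 6 d. It read 201 in Norm, 428 and 205 at 10 h, 650 and 671 at 2 d, 634 and 433 at 4 d and 665 and 761 at 6 d. Norm and one 10 h array lay under the floor, and the 10 h pair was split. The array labelled 4 d 1a, with 634, was close to the 2 d and 6 d arrays. The change from Norm was at least 1.48 ± 0.42 at 2 d, at least 1.15 at 4 d and at least 1.59 ± 0.42 at 6 d, that is at least 2.80-fold and 3.01-fold for 2 d and 6 d, with limma adjusted p = 0.104 and 0.319. Its other probe set stayed under the floor on all 9 A arrays. Fen1, the nuclease that trims the fragments, differed by at least 0.10 at 2 d and at least 0.32 at 6 d. Ung, which removes uracil from DNA, differed by 0.30 and 0.20, with its other 2 tested probe sets at 0.27 and -0.29 at 2 d and at 0.24 and 0.28 at 6 d.

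Of the 4 nucleotide supply genes tested, Tk1, Rrm1 and Dut were represented on C, which has no array in doubt, and Rrm2 on A. Tk1, the S phase thymidine kinase, had its representative probe set on C and read 1241 and 974 in Norm, 1104 and 1120 at 10 h, 1839 and 1878 at 2 d, 1045 and 1219 at 4 d and 1576 and 1758 at 6 d. Both 2 d and both 6 d arrays stood above the 6 others, and Norm, 10 h and 4 d overlapped. The change was 0.76 ± 0.21 at 2 d and 0.60 ± 0.21 at 6 d, 1.69-fold and 1.51-fold, with limma adjusted p = 0.097 and 0.420. A second Tk1 probe set on C, with shared or relaxed probes, read 3405 and 2694 in Norm, 2118 and 1498 at 10 h, 3440 and 5120 at 2 d, 2197 and 3004 at 4 d and 3654 and 4027 at 6 d. It followed the same order at 2 d and 6 d and was lowest at 10 h. Of the other 3 tested Tk1 probe sets, 2 were higher than Norm at 2 d and 6 d (by 0.42 and 0.17, and by at least 0.35 and 0.43) and 1 was lower.

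Rrm1, the large subunit of ribonucleotide reductase, on C, read 708 and 546 in Norm, 870 and 607 at 10 h, 816 and 1347 at 2 d, 817 and 772 at 4 d and 874 and 1123 at 6 d. The 2 d, 4 d and 6 d arrays lay above both Norm arrays. Rrm2, the small subunit that is made in S phase, read 119 in Norm, 158 and 182 at 10 h, 227 and 217 at 2 d, 462 and 335 at 4 d and 474 and 364 at 6 d. All arrays up to 2 d were under the floor and all 4 d and 6 d arrays above it. The change from Norm was at least 0.74 ± 0.27 at 4 d and at least 0.82 ± 0.27 at 6 d, with limma adjusted p = 0.724 and 0.406. Dut, which keeps uracil out of DNA by breaking down dUTP, was highest at 10 h on C, with 1127 and 1071 there against 730 and 787 in Norm, 1034 and 864 at 2 d, 535 and 840 at 4 d and 800 and 879 at 6 d. The change at 10 h was 0.54 ± 0.30, with limma adjusted p = 0.903. Its probe set on A was higher than Norm by at least 0.47 at 10 h and at least 0.63 at 6 d.

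Both measured subunits of Caf-1 stood highest at 2 d. Chaf1a read 400 in Norm, 292 and 278 at 10 h, 592 and 727 at 2 d, 468 and 75 at 4 d and 578 and 327 at 6 d. Chaf1b read 88 in Norm, 51 and 130 at 10 h, 332 and 412 at 2 d, 295 and 257 at 4 d and 398 and 212 at 6 d. Norm and 10 h were below 2 d for both genes. The 4 d pair of Chaf1a and the 6 d pairs of both genes were wide. The change at 2 d was 0.71 ± 0.47 for Chaf1a and at least 0.65 ± 0.32 for Chaf1b, with limma adjusted p = 0.463 and 0.318.

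Of the G1 to S regulators, Ccne2 had the smallest adjusted p of any member against Norm. This E-type cyclin read 2030 and 1682 in Norm, 1996 and 2331 at 10 h, 3277 and 3056 at 2 d, 2763 and 1969 at 4 d and 2790 and 2961 at 6 d on C. Both 2 d and both 6 d arrays stood above all others, and the 4 d pair was split around the 10 h arrays. The change was 0.78 ± 0.20 at 2 d (1.71-fold) and 0.64 ± 0.20 at 6 d, with limma adjusted p = 0.082 and 0.370. This probe set has a suffix for relaxed probe rules, and the plain Ccne2 probe set, on A, read between 3 and 80 on every array, under the floor. Ccne1, the other E-type cyclin, read 500 in Norm, 640 and 690 at 10 h, 672 and 663 at 2 d, 679 and 1069 at 4 d and 886 and 751 at 6 d. The Norm array was its lowest, and the change at 4 d was 0.77 ± 0.33 with limma adjusted p = 0.798. Its 2 probe sets on C were slightly lower than Norm at 2 d and higher at 4 d, by 0.40 and 0.64. E2f1, represented by a probe set with shared probes, differed by 0.33 at 2 d, 0.47 at 4 d and 0.11 at 6 d, and its plain probe set stayed under the floor.

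Probe sets of 1 gene often disagreed. Of the 15 members with more than 1 tested probe set, all probe sets were higher than in Norm for 7 members at 2 d, 8 at 4 d and 9 at 6 d, and all were lower for 1, 2 and 2. The rest were mixed or had a probe set at the floor in both groups. Mcm3, Mcm5, Cdt1 and Rrm1 were higher in all their tested probe sets at all 3 of these times.

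The members' mean level followed the groups on both A and C, apart from 4 d. On A, the mean deviation of the 38 member probe sets from their own means was -0.24 on the array labelled Norm 1b, -0.20 and -0.21 at 10 h, 0.10 and 0.18 at 2 d, 0.25 and -0.18 on the arrays labelled 4 d 1a and 4 d 1b, and 0.17 and 0.14 at 6 d. On C, with 16 member probe sets and both Norm arrays, it was -0.06 and -0.17 in Norm, -0.13 and -0.16 at 10 h, 0.08 and 0.19 at 2 d, -0.04 and -0.07 at 4 d and 0.21 and 0.15 at 6 d. On both types the 10 h arrays were low and the 2 d and 6 d arrays high. At 4 d, both C arrays and the A array labelled 4 d 1b were below their mean, and the A array labelled 4 d 1a was the highest of the A arrays. That array held the highest value of 11 of the 38 member probe sets of A (11.7% of all A probe sets) and the lowest of none (11.9%). The array labelled 4 d 1b held the lowest of 9, among them Mcm2, Pold1, Chaf1a and a Tk1 probe set (18.9% of all), and the array labelled Norm 1b the lowest of 9 others (7.88% of all).

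**Figure D5:**
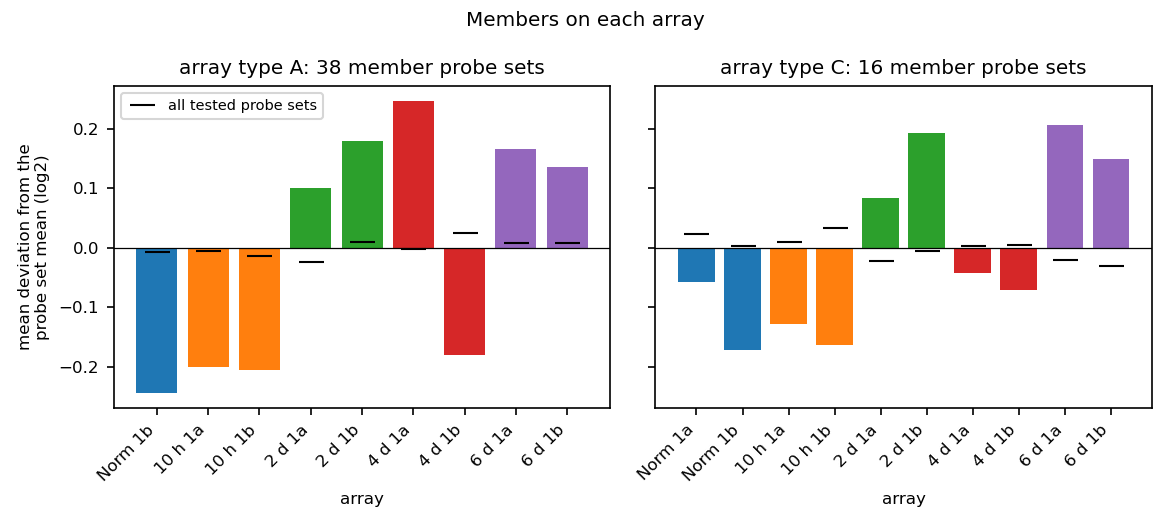
Mean deviation of the tested member probe sets from their own means on each array (bars, log2), for A (left, 38 probe sets) and C (right, 16), with the same for all tested probe sets of the type as short black lines. The 2 d and 6 d arrays are above 0 and the Norm and 10 h arrays below it on both types; the arrays labelled 4 d differ between each other on A, at 0.25 and -0.18.

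The comparisons 4 d against 10 h and 6 d against 2 d stay within the runs of deposit, share no samples and do not use Norm. At 4 d the members' median was 0.26 above 10 h, with 25 of 33 higher, against a median of 0.0 and 49.1% of genes higher over all genes. None of the 55 member probe sets passed in limma (0.0233% of all did), and 8 had an unadjusted p under 0.05 (8.08% of all), 5 of them higher. Mcm3 had the smallest adjusted p, with a change of 1.03 ± 0.26 and limma adjusted p = 0.311. Both 4 d arrays stood above both 10 h arrays in 22 of the 55 probe sets (16.8% of all) and below them in 7 (17.5% of all). Those above included Cdc6, Mcm3, Mcm4, Mcm7, Pcna, Lig1 and Rrm2, all on A, where the array labelled 4 d 1a is in doubt. Of the 27 members represented on A, 22 were higher (median 0.36). Of the 6 on B or C, 3 were (median -0.046). Without the A array labelled 4 d 1a the median was 0.11, with 20 of 33 higher.

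From 2 d to 6 d the members' median was near 0, and its sign depended on the samples. The median was -0.10, with 12 of 33 higher, and 0.0097 without 6 d 1b. Over the 55 member probe sets 26 were higher and 28 lower, and with no filter 12 of 38 were higher. None of the 55 passed in limma (0.062% of all did), 6 had an unadjusted p under 0.05 (13% of all), and Rfc5 had the smallest adjusted p, 0.130, in a probe set that was not its representative. Both 6 d arrays were above both 2 d arrays in 16 of 55 (21.5% of all) and below them in 13 (22.1% of all). Rrm2 was higher by at least 0.82 ± 0.22, with limma adjusted p = 0.174. The representatives of all 8 clamp, loader and single-strand binding genes were lower, by -0.01 to -0.50, the last a bound for Rpa2. Other tested probe sets of these genes were higher. The Rfc5 probe set named above read 387 and 376 at 6 d against 182 and 222, under the floor, at 2 d. Second probe sets of Rpa1 and Rpa2, on C, were higher by at least 0.20 and by 0.02. Without the 2 doubted A arrays the median was -0.096 and none passed (0.0741% of all did). For the difference between these 2 changes, none of the 55 probe sets passed in limma (0.00388% of all did) and 6 had an unadjusted p under 0.05 (11% of all). The smallest adjusted p there was 0.294, for Dut.

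With both doubted A arrays left out, 10 h was the reference, since A then has no Norm array. This comparison was added after the data had been seen. From 10 h to 2 d the members' median was 0.33, with 28 of 33 higher, and 2 of the 55 member probe sets rose past the threshold, against 7.02% of all probe sets. These were Rfc3 (at least 0.83 ± 0.15, limma adjusted p = 0.030) and the second Tk1 probe set on C (1.24 ± 0.26, limma adjusted p = 0.028). In both, the 2 arrays at 2 d were above the 2 at 10 h. With the array labelled 4 d 1a left out, Rfc3 stood above the floor only at 2 d and 6 d. It thus passed the filter through the groups where it was high, and its p-value does not allow for that. With at least 5 arrays above the floor asked for, Rfc3 was not tested. The shares were thus 2 of 55 for members and 7.02% for all probe sets, and 17 of 55 against 25.6% at an unadjusted p under 0.05. Neither call was kept when either 10 h or either 2 d sample was left out, with adjusted p between 0.058 and 0.151 in those fits, or when either 6 d sample was (0.051 to 0.059). Over all alternatives the adjusted p lay between 0.024 and 0.151 for Rfc3 and between 0.016 and 0.138 for Tk1. Mcm3 passed in 5 of the alternatives and the representative Tk1 probe set, Lig1 and Chaf1a in 1 each. The next members were Mcm3 (0.93 ± 0.21), Chaf1a (1.20 ± 0.30) and Lig1 (1.05 ± 0.31), with limma adjusted p = 0.051, 0.063 and 0.094.

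From 10 h to 6 d, with the same arrays, the median was 0.36 and 25 of 33 members were higher. None of the 55 passed in limma (0.492% of all did), and 15 had an unadjusted p under 0.05 (14.3% of all). Rrm2 (at least 0.80 ± 0.16), Lig1 (1.16 ± 0.31), Mcm3 (0.78 ± 0.21), Mcm2 (0.81 ± 0.24) and Mcm5 (0.95 ± 0.32) were higher, and Rpa1 (-0.56 ± 0.16) was lower. From 10 h to 4 d, on the array labelled 4 d 1b alone for A, the median was 0.11 with 20 of 33 higher. None of the 55 passed (0.527% of all did), and Pold1, Mcm6 and Mcm2 were the lowest, Pold1 at no more than -1.42 and the other two at -0.97 and -0.96. That low Pold1 value rests on a reading of 115, under the floor, on the array labelled 4 d 1b. Other tested Pold1 probe sets were higher at 4 d than at 10 h, by 0.33 on A and 0.86 on C. The second Mcm6 probe set was higher too, by at least 0.39. Every comparison with 2 d or 6 d here crosses the runs of deposit.

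Other genes of the pathway, from lists that do not overlap the members, were read in the same way. Among other replication genes (origin recognition, Gins, further polymerase subunits and the like), 36 of 44 on the arrays were tested and none passed in any comparison. Their medians from Norm were 0.04 at 10 h, 0.07 at 2 d, 0.06 at 4 d and 0.10 at 6 d, with 19, 21, 22 and 24 of 36 higher. Slbp, which binds histone messenger RNA, was higher at 4 d by 1.18 ± 0.32 (limma adjusted p = 0.602), and Timeless, a replication fork protein, by 0.61 to 0.68 at 10 h, 4 d and 6 d. Mcm10, an initiation factor, was under the floor at 4 d and 6 d on C.

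Of 24 tested G1 to S control genes out of 27, none passed, and the medians were -0.04, 0.20, 0.03 and 0.01. Cdkn1a, the p21 inhibitor of cyclin-dependent kinases, was the highest of them, at 1.49 ± 0.31, 1.07 ± 0.31, 0.90 ± 0.31 and 1.02 ± 0.31 from 10 h to 6 d, with limma adjusted p between 0.109 and 0.704. Of 29 tested mitosis genes out of 31, none passed, and the medians were 0.0, 0.34, 0.48 and 0.71, with 11, 21, 23 and 27 of 29 higher. From 2 d to 6 d the mitosis genes had a median change of 0.34 with 25 of 29 higher, while that of the members was -0.10. Ccnb2, a mitotic cyclin, differed from Norm by 0.97 ± 0.29 at 6 d, and Smc2, a condensin subunit, by at least 1.04 ± 0.30 (limma adjusted p = 0.357 and 0.347).

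Cells that divide in blood and marrow carry these transcripts too, and their markers were followed as intensities summed over those on A. For erythroid precursors, 12 of 15 markers on the arrays were tested (10 on A), and their sum was 8899 in Norm, 6751 to 7403 at 10 h, 12812 to 14687 at 2 d, 9030 to 12145 at 4 d and 10169 to 11381 at 6 d. It was thus lowest at 10 h and highest at 2 d. Most of it came from the bright markers Alas2 (2252 to 5307), Car2 (1719 to 3332) and Bpgm (1027 to 2907). Of the 12 markers, 10 were higher than Norm and 2 lower at 2 d, and 8 higher and 4 lower at 6 d. Klf1 was among the lower ones at 6 d, by -0.51. The lung marker sum (10 of 10 tested, 6 on A) was highest at 2 d and 6 d, with 55730 in Norm, 27465 to 54893 at 10 h, 111938 to 123555 at 2 d, 51256 to 52657 at 4 d and 66906 to 92169 at 6 d. The markers did not rise together: at 2 d 7 were higher than Norm and 3 lower. Sftpc and Scgb1a1 differed by 2.46 and 1.68 there, and Sftpb by -0.84. Of the erythroid precursor markers, Tal1 was at the floor on 7 of 9 arrays, Epor on 6 and Klf1 on 5, and Car1, Ermap and Hemgn did not pass the filter. For granulocyte precursors (8 of 11 tested) the sum was 9993 in Norm, 9709 to 9791 at 10 h, 10488 to 12368 at 2 d, 9492 to 11708 at 4 d and 12484 to 14028 at 6 d, with Mpo at the floor on 7 of 9 arrays. For lymphocytes (8 of 12 tested) it was 4796 in Norm and 3119 to 4381 at all other times, with Cd3e, Cd3g, Cd8a and Cd8b1 not past the filter. For macrophages (6 of 9 tested) it was 22467 in Norm, 15038 to 19146 at 10 h and 20718 to 23939 later. The smooth muscle sum (8 of 8 tested, 6 on A) was 16248 in Norm, 21326 to 24938 at 10 h, 23711 to 25395 at 2 d, 13489 to 21283 at 4 d and 11883 to 13846 at 6 d. The sum at 2 d did not stand for most of these markers. Against Norm, 3 were higher and 5 lower there (median -0.54), while 7 were higher and 1 lower at 10 h. All 8 were lower at 6 d. The endothelial sum (9 of 9 tested, 8 on A) was 49593 in Norm, 56279 to 57661 at 2 d and 34956 to 48871 at the other times. The part of these cells in the members' values was not tested.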

How the data were processed

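The authors deposited linear intensities per probe set for 30 arrays. The program behind them is not named in the labels used here. Because the trimmed means (2% left out at each end) were alike, the intensities were used as deposited, with values under the 40th percentile of an array type set to it. Log2 of these intensities was computed here from the values the authors deposited. The limma 3.58.1 package in R 4.3.3 fitted the 5 group means of each array type to 29 arrays (lmFit, eBayes with trend). Tests were two-sided with Benjamini-Hochberg adjustment over all 3 types (25801 probe sets, 66 controls per type left out). A change from a group wholly at the floor is given as "at least". Symbols came from the platform annotation, which can be old, and 2 probe sets naming a member beside other symbols were not used. A member was represented by a plain probe set before those with a suffix for shared probes, and among these by the brightest relative to its array type. Sample values are given for members that passed and, per role, for the member of smallest p at each time against Norm. Mcm5, Mcm6, Mcm7, Pcna, Rrm1 and Cdc6 were added after their values were seen. The members and lists were chosen with earlier results of these data known. Promoters are RefSeq's (GRCm38.p6). The fit was tested on simulated data, with changes larger than most of the members' and only in probe sets well above the floor. That test does not cover small changes or members near the floor. Alternatives were other normalizations, floors and filters, a replicate block, each array type alone and leaving out each sample.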

Additional observations from a re-analysis of the deposited data

How the results depend on the processing

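Counts of member probe sets past the threshold stayed at 0 in the 4 comparisons with Norm, in 4 d against 10 h and in 6 d against 2 d under every alternative run, and of 1866 alternative fits of 96 results for single named members in these comparisons none passed and 32 turned the sign, which touched 23 of the 96. The samples' letters do not pair the samples: same-lettered deviations correlated between -0.102 and 0.0915 on A, -0.158 and 0.134 on B and -0.108 and 0.0574 on C. With the letter as a replicate block the medians were 0.00735 at 10 h, 0.39 at 2 d, 0.28 at 4 d and 0.29 at 6 d, with 0 member probe sets past the threshold, and 1 instead of 2 passed for 2 d against 10 h. With no filter on dim probe sets the medians were 0.28 at 2 d and 0.15 at 4 d from Norm and 0.16 for 2 d against 10 h, where 0 then passed. With B and C alone the medians were 0.15 for 4 d against Norm and 0.11 for 4 d against 10 h, and without the A array labelled 4 d 1a they were 0.17 and 0.11. Leaving out each sample in turn, the medians ranged from 0.37 to 0.54 for 2 d, from -0.13 to 0.39 for 4 d and from 0.29 to 0.46 for 6 d against Norm, from 0.095 to 0.42 for 4 d against 10 h, from -0.13 to 0.0097 for 6 d against 2 d and from 0.21 to 0.39 for 2 d against 10 h. The value of -0.13 at 4 d came without Norm 1b, which leaves 6 members, all on B and C, and that of 0.0097 without 6 d 1b. For 2 d against 10 h the number past the threshold was 1 with the floor at the 20th percentile, 4 with at least 5 arrays above the floor, and 0 to 4 when a sample was left out (0 without any single 10 h, 2 d or 6 d sample, 3 without Norm 1a and 4 without Norm 1b). The cause of these shifts was not tested, apart from the fewer members or samples used. The number of arrays, 2 per group and 1 for Norm on A, limits every value, and members near the floor have only bounds.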
